A study of Mus musculus with 40 samples.

Results

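The nuclear-encoded subunits of the mitochondrial respiratory chain were examined in the mouse amygdala, a brain region involved in emotional and social behaviour. Members were chosen by name alone, as protein-coding genes whose symbols begin with Nduf followed by a, b, c, s or v and a number, with Uqcr, with Cox and a number from 4 to 8, or with Atp5, or are Sdha, Sdhb, Sdhc or Sdhd. Pseudogenes and assembly factors were left out. The rule found 84 of the 43629 genes in the count table. By name they comprised 37 genes of complex I, 4 of complex II, 8 of complex III, 18 of complex IV and 17 of complex V. Complexes were assigned from the symbol alone. Ndufa4 and Ndufa4l2 were thus counted with complex I, without regard to the complex that their proteins join.

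RNA sequencing had been carried out on amygdala tissue from 10-week-old male Swiss Webster mice in 6 groups, giving 40 libraries. Conventionally raised mice (CON) and germ-free mice (GF) came from separate breeding pairs, and ex-germ-free mice (exGF) were born germ-free and colonised from weaning by housing on bedding used by CON mice. Naïve groups held 4 libraries each, described in the paper as pools of RNA that represented 8 animals per group. However, 1 of the GF libraries, GF-P2, is listed as a single animal. The social interaction (SI) groups held 8 CON-SI, 12 GF-SI and 8 exGF-SI libraries, each from a single animal taken an hour after a three-chamber sociability test. Pooling, handling and exposure to a new arena therefore go with SI against naïve and cannot be told apart from social interaction here. Naïve libraries are named P1 to P4 and SI libraries S with the animal's number.

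The respiratory chain passes electrons from NADH (complex I) and succinate (complex II) through complex III to complex IV, where oxygen is reduced, and complex V uses the resulting proton gradient to make ATP. A few subunits are encoded by mitochondrial DNA, but most are encoded in the nucleus, translated in the cytosol and imported. Neurons depend heavily on this pathway to keep ion gradients and synaptic activity going. Nuclear respiratory factor 1 (NRF1) and the ETS-family factor GABP (also called NRF2) are known to bind promoters of many of these genes.

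RefSeq promoter windows (GRCm38.p6, 250 bases before and 50 after the start) were matched by symbol for 66 of the 84 members. The NRF1 core GCGCNTGCGC was found on either strand in 17 of these 66 windows (25.8%), against 5.19% of 27025 genes. The ETS core CCGGAA, which also lies within the longer CCGGAAG, was found in 25 windows (37.9%), against 16.7% of all genes. The YY1 core AAGATGGC was found in 9 windows (13.6%), against 3.19%. In the 250 bases before the start alone it was found in 1 (1.52%), against 1.83%. Over the whole window TATAAA was found in 10.6% against 15.7% and CCAAT in 43.9% against 41.1%. These matches are letters in a window and were not tested for binding.

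Promoter stretches of 4 members named in the results below are given 5′ to 3′ on the strand of the gene, with NRF1 and ETS core matches in capitals. Each is the longest stretch of the upstream 250 bases that touched no annotated exon. They were Atp5h at chr11:115419963-115420127, Cox6a1 at chr5:115348982-115349129, Cox7c at chr13:86046905-86047045 and Uqcr11 at chr10:80406831-80407071, all on the minus strand and 43, 23, 109 and 9 bases from the RefSeq start.
Atp5h: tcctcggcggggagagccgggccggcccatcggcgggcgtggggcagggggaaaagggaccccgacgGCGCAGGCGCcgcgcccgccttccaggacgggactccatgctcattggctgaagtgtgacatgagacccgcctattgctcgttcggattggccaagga
Cox6a1: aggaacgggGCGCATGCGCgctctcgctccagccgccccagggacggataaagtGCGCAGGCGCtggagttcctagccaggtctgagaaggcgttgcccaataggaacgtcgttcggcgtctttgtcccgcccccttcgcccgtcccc
Cox7c: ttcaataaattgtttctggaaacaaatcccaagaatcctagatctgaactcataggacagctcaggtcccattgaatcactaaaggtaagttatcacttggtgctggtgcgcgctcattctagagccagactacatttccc
Uqcr11: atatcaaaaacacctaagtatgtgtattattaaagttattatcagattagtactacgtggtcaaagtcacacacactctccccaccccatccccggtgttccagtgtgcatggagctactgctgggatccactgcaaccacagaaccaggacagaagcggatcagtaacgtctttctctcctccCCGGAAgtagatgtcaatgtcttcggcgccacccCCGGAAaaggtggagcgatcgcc
The Cox6a1 stretch held 2 NRF1 cores and 66.9% G and C, the Atp5h stretch held 1 NRF1 core and 69.7%, and the Uqcr11 stretch held 2 ETS cores and 49.8%. The Cox7c stretch held neither motif and had 42.6% G and C.

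Transcripts of the set were abundant. On a scale of CPM (counts of a gene per 1000000 counts) per kb of transcript, 74 of the 84 members reached 10 or more over the 40 libraries and 10 did not. The highest levels were those of Cox6c, a complex IV subunit, at 370 ± 44.6 (SD, n = 40), Atp5b and Atp5a1, the catalytic beta and alpha subunits of ATP synthase, at 272 ± 21.4 and 257 ± 17.6, Atp5h, a subunit of its peripheral stalk, at 256 ± 31.9, and Cox7c at 247 ± 67.6. The spread of these neighbours overlapped, and their order rests on which length is used. With the length of all exons joined, Cox6c ranked 21 and Atp5a1 ranked 1. Complex medians on this scale were 45.2 for complex I, 45.6 for complex II, 93.9 for complex III, 70.4 for complex IV and 93.3 for complex V.

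**Figure D1:**
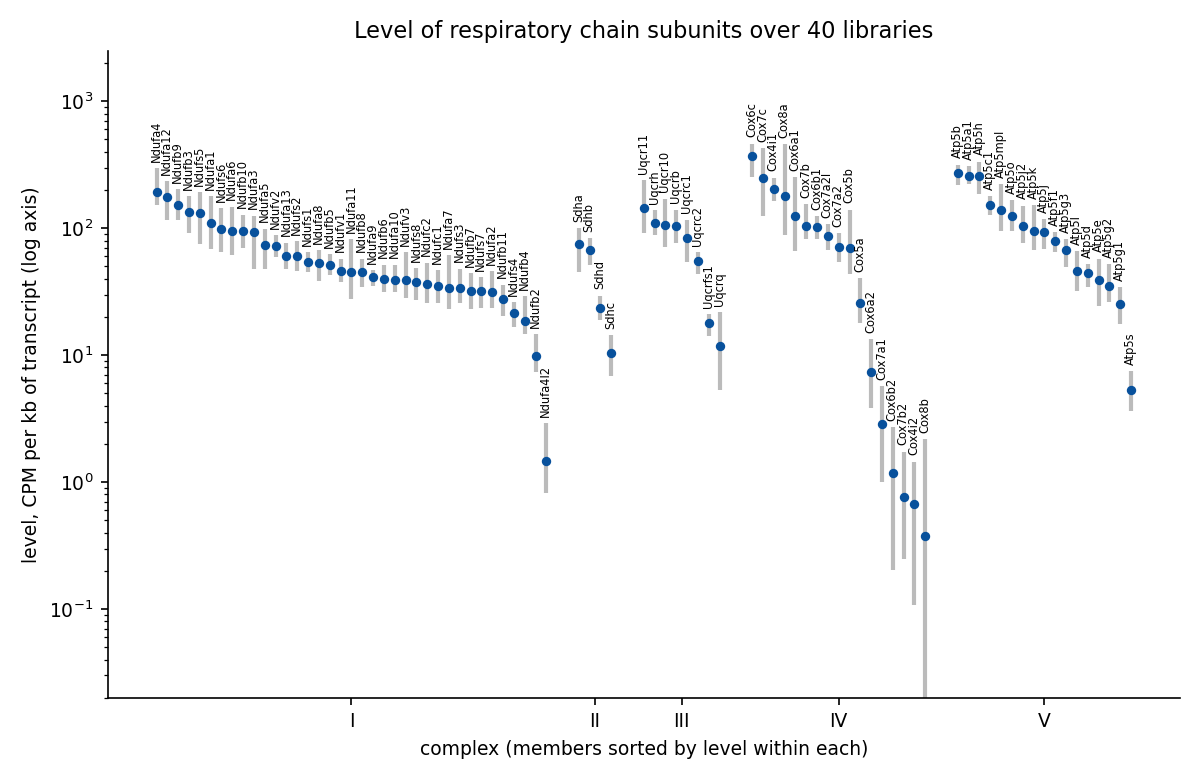
Mean level of each subunit in CPM per kb of transcript (log axis, points) with the range over 40 libraries (grey bars), sorted within complexes I to V. Most members lie between 10 and 370, and the low tail holds mainly tissue-restricted isoforms of complex IV. Cox8c, at 0 in every library, is not drawn, and the bar of Cox8b runs down to 0.

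The lowest levels belonged to alternative complex IV isoforms known from other tissues. Cox8c had no count in any of the 40 libraries, where 3 counts would make 0.15 to 0.411 CPM. Cox8b was at 0.374 CPM per kb, Cox4i2 at 0.672, Cox7b2 at 0.767 and Cox6b2 at 1.17. Within isoform sets, the share of the summed level per kb was 99.66% ± 0.176 (SD, n = 40) for Cox4i1 over Cox4i2, 98.86% ± 0.524 for Cox6b1 over Cox6b2, 99.25% ± 0.346 for Cox7b over Cox7b2 and 99.24% ± 0.226 for Ndufa4 over Ndufa4l2. Cox8a took 99.76% ± 0.321 of its set. Cox6a1, the form found in most tissues, held 94.11% ± 2.09 beside 5.885% for Cox6a2, the heart and muscle form. The set of Cox7a1, Cox7a2 and Cox7a2l was divided into 1.778%, 44.07% and 54.15%. Cox7a2l is known as a factor of respiratory supercomplexes, and 35.4% of the counts of it and its pseudogene copy together lay on the copy. The 3 genes for the identical c subunit of the ATP synthase ring contributed 19.73% (Atp5g1), 27.32% (Atp5g2) and 52.95% (Atp5g3).

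Members differed in how steady they were. Of the 74 members at 10 CPM per kb or more, 41 had a coefficient of variation (CV) over libraries under 15%, and the steadiest were the ATP synthase core subunits Atp5a1 (6.85%), Atp5c1 (6.94%) and Atp5b (7.89%). A CV over 25% was found in 5: Uqcrq (41.4%), a small complex III subunit, and the complex IV subunits Cox8a (41.2%), Cox6a1 (34.8%), Cox5b (27.7%) and Cox7c (27.4%). Cox8a reached 252 CPM in CON-S5 and 48.7 CPM in CON-P3. CON-S5 was also the library with the steepest positive slope of expression on GC content, 0.149 on the log2 scale per 10% GC. Pseudogene copies of at least 95% identity were annotated for 21 members, and took over 5% of the joint counts for 4. Exons of 3 members overlapped another gene by more than 20% (Ndufb6 by 39%, Atp5o by 35.6% and Ndufa13 by 30%). Since counting ignored strand, reads lying wholly in the shared bases could not be assigned to either gene.

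Library totals lay between 7291810 and 19961958 counts, and the members took 0.294% to 0.751% of them. Gm42418, which overlaps ribosomal RNA sequence, made up 32.3% of all counts for CON-P1 and 18.5% for CON-P3. The values of exGF-P1, exGF-S7 and exGF-P2 were 14.3%, 9.25% and 6.23%, and no other library exceeded 1.75%. Markers of amygdala nuclei summed to between 203 and 344 CPM in every library. Etv1 and Rorb weighed most in this sum, with median counts of 1534.5 and 1387, against 359 for Rspo2, 109 for Cyp26b1 and 81.5 for Prkcd. Of the 45 markers of 9 cell types and regions, Folr1, a choroid plexus marker, was at 0 in 1 library and all others were detected in every library. Choroid plexus markers, which come from tissue lining the ventricles, summed to 36 to 293 CPM in CON, 21.7 to 25.7 in GF, 19.8 to 48 in exGF, 33.2 to 71.9 in CON-SI, 15 to 976 in GF-SI and 29.2 to 1442 in exGF-SI. In tissue RNA, fewer cells of a type and less RNA per cell cannot be told apart.

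The average level of the subunits varied from library to library. Complexes did not always move alike, as in CON-S5, with complex III at -0.106 and complex IV at 0.382 on the log2 scale. The mean log2 deviation of all tested members from their average over libraries ran from -0.203 in exGF-S4 to 0.287 in CON-P2. Group medians were -0.0776 for CON, 0.0418 for GF, 0.112 for exGF, -0.0274 for CON-SI, 0.0151 for GF-SI and -0.0752 for exGF-SI, and all groups overlapped. This mean went with the slope of expression on gene length (all exons joined) in genes outside the set. All 11 libraries with a slope under -0.02 had members above average, and all 12 with a slope over 0.015 had them below. Libraries between these limits lay on either side, such as CON-S12 (slope -0.0108, mean -0.0198) and GF-S8 (slope 0.00993, mean 0.0525). The slope ran from -0.0561 to -0.000558 in exGF and from -0.0419 to 0.0601 in exGF-SI. Respiratory chain transcripts are short, and the part of length-dependent recovery of RNA in these means was not tested.

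**Figure D2:**
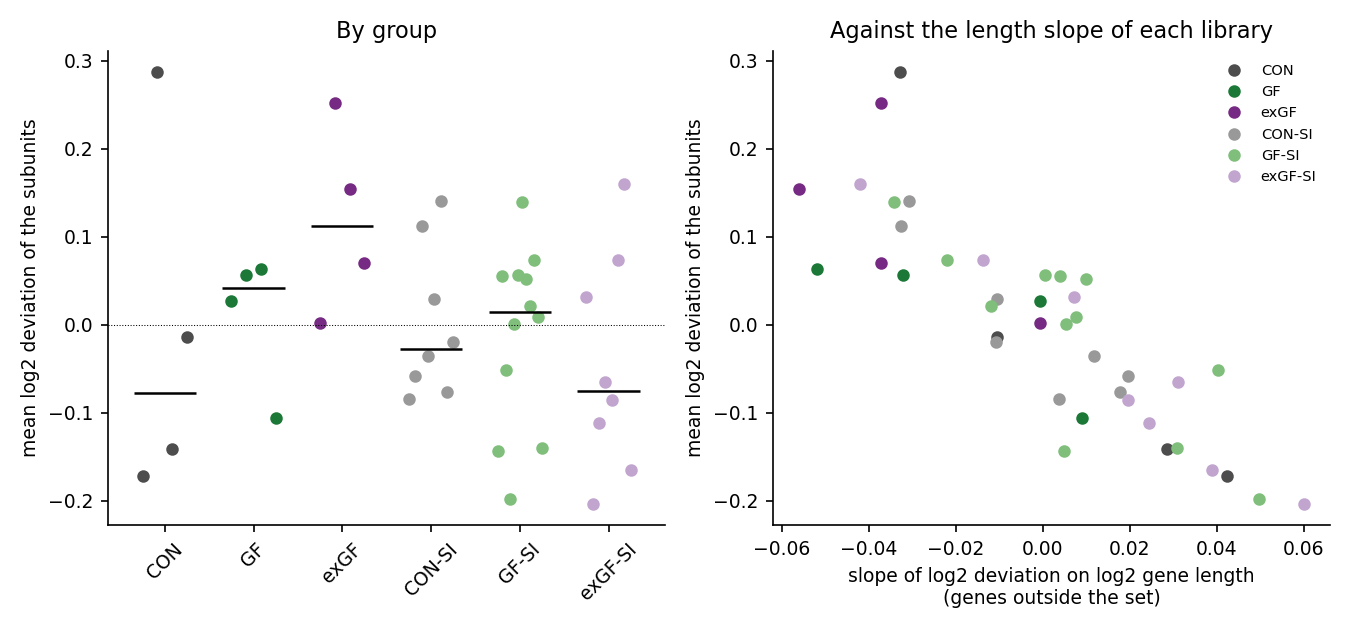
Mean log2 deviation of the subunits in each library by group (left, where points are libraries and bars are medians) and against the slope of expression on log2 gene length (all exons joined) among other genes (right). The exGF libraries lie at 0.00181 to 0.252 and exGF-SI libraries at -0.203 to 0.160, and libraries with negative slopes mostly lie higher.

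The first question was whether social interaction went with a change in the respiratory chain in each colonisation status. Genes were tested by edgeR's quasi-likelihood test with Benjamini-Hochberg adjustment over all genes passing the filter on low counts, at an adjusted p of 0.1. Of CON-SI over CON, 1 of 79 members tested rose (1.27%) and none fell, against 3.72% of all 15220 genes called (2.35% higher and 1.37% lower). Of GF-SI over GF, 7 of 81 rose and 6 fell, against 13.7% of all 15443 genes called (7.87% higher and 5.86% lower). Of exGF-SI over exGF, none of 80 rose and 10 fell, against 7.61% of all 15264 genes called (4.6% higher and 3.01% lower). The 16% of members called in GF-SI lay near the background, whereas the 12.5% of members that fell in exGF-SI stood above it.

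**Figure D3:**
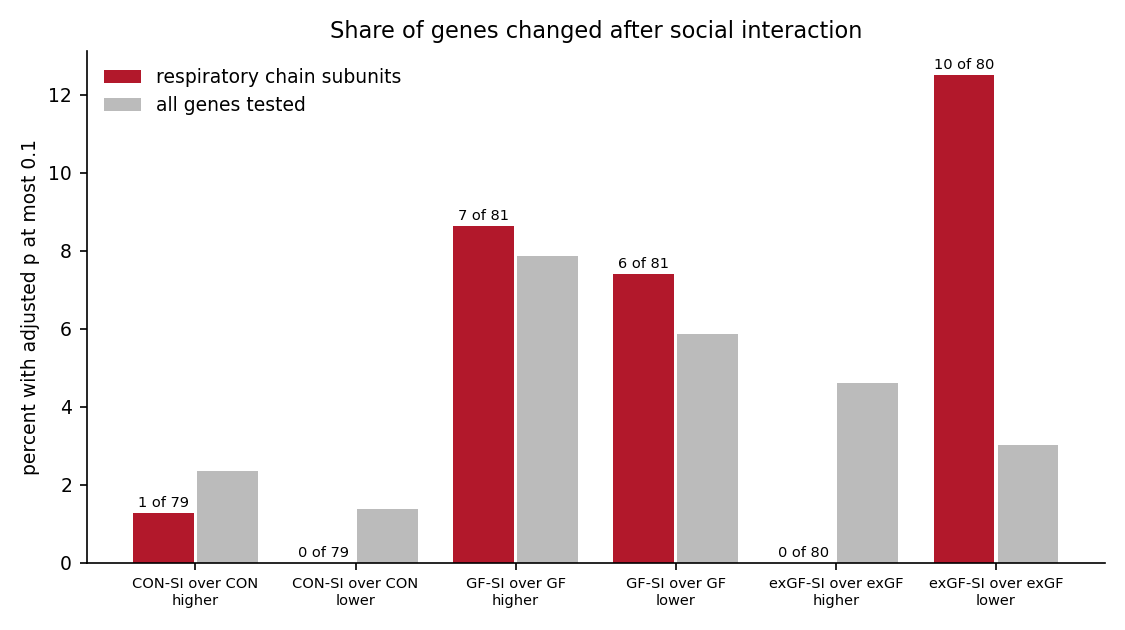
Percent of respiratory chain subunits (red) and of all genes tested (grey) that rose or fell after social interaction at an adjusted p of at most 0.1, by colonisation status. The bars differ most for exGF-SI, with 10 of 80 subunits lower and none higher.

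**Figure D4:**
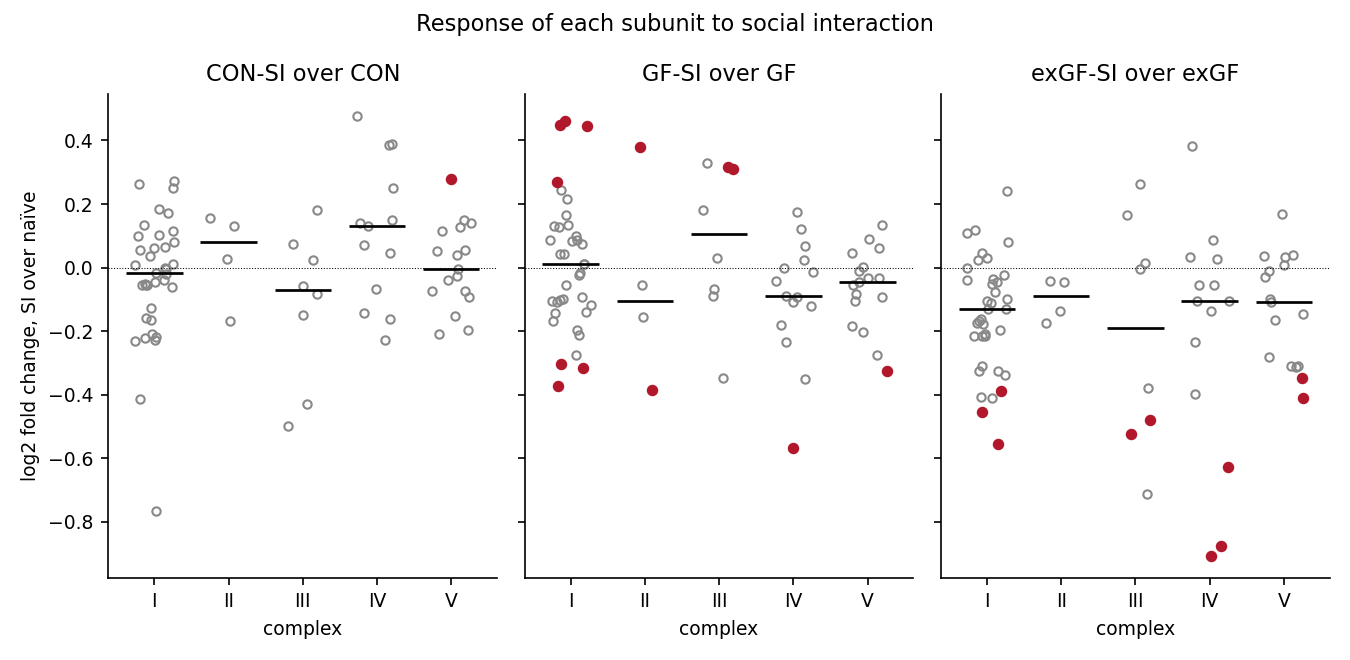
Log2 fold change of SI over naïve for each tested subunit, by complex, in the 3 colonisation statuses. Filled red points passed an adjusted p of 0.1, open points did not, and bars are complex medians. In exGF-SI all 5 medians lie below 0, between -0.0908 and -0.191.

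In conventionally raised mice 1 member changed. The median log2 fold change of the 79 members was -0.0011, beside -0.0058 for all genes, with 39 members above 0 and 40 below. This median had no stable direction: it was -0.095 without the libraries rich in Gm42418 (CON-P1 and CON-P3 here) and 0.112 without CON-P2, the one rich in choroid plexus markers. Atp5h, which encodes subunit d of the peripheral stalk that holds the ATP synthase head, was the member that rose. Its CPM were 120.2, 145, 132 and 140.3 in CON-P1 to CON-P4, and 137 to 183 with a median of 164 in CON-SI. The CON-SI values lay mostly above the naïve ones, and the groups overlapped. Its log2 fold change was 0.28 (SE 0.08, adjusted p = 0.094, edgeR). The call was lost on leaving out any of 10 libraries, including each naïve one, and on leaving out the libraries rich in Gm42418. An unadjusted p under 0.05 was reached by 7 members (8.86%), against 16.5% of all genes, and DESeq2 called 4, against 3.57% of all genes in its fit.

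The extremes by complex in CON-SI did not pass the test. Among genes placed in complex I by symbol they were Ndufb9 at 0.27 and the low-level isoform Ndufa4l2 at -0.77 on the log2 scale. In complex II they were Sdhc at 0.16 and Sdha at -0.17. In complex III they were the core protein Uqcrc1 at 0.18 and Uqcrq at -0.5, and in complex IV Cox8a at 0.48 and Cox5a at -0.23. In complex V, Atp5e, the epsilon subunit, was lowest at -0.21. None of 17 catalytic or core subunits was called, and their log2 fold changes ran from -0.17 for Sdha to 0.18 for Ndufv1, which binds NADH. Of 5 markers each, 1 fell for excitatory neurons, endothelium and choroid plexus (Camk2a, Cldn5 and Folr1), and their part was not tested.

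In germ-free mice, members rose and fell in shares close to those of all genes. Complex I had 4 members that rose and 3 that fell, complex II 1 and 1, complex III 2 and 0, complex IV 0 and 1 and complex V 0 and 1. Of the 17 catalytic or core subunits 1 rose and 3 fell. The median over the 81 members was -0.033, beside -0.0099 for all genes. No member had GF and GF-SI libraries that did not overlap, against 3.19% of all genes tested.

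Cox7c, a small membrane subunit of complex IV (ENSMUSG00000017778), fell most by p. It stood at 141.5, 179.5, 232 and 128 CPM in GF-P1 to GF-P4 and at 94.7 to 146 CPM, median 113, in GF-SI. The GF-SI values lay low, reaching into the lower naïve libraries, GF-P1 and GF-P4. The log2 fold change was -0.57 (SE 0.13, adjusted p = 0.014, edgeR).

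In complex I, Ndufs3 and Ndufs8 fell, both core subunits of the arm that reaches into the matrix, of which Ndufs8 binds iron-sulfur clusters. Ndufs3 was at 38.5, 42.7, 50.3 and 33.9 CPM in GF and at 27 to 36.8, median 32.6, in GF-SI. All naïve libraries but GF-P4 lay above every GF-SI animal. The log2 fold changes were -0.37 (SE 0.09, adjusted p = 0.0218, edgeR) for Ndufs3 and -0.3 (SE 0.1, adjusted p = 0.0702) for Ndufs8. Corrected for GC content and length, Ndufs8 was at -0.17 and no longer called. The membrane-arm accessory subunit Ndufc2 also fell, at -0.32 (SE 0.11, adjusted p = 0.0699, edgeR). The Ndufs8 and Ndufc2 calls were each kept in 3 of 6 alternatives. They were kept in 12 and 13 of 16 fits that each left out 1 library.

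The complex I members that rose were accessory subunits. Ndufa1, a small membrane subunit encoded on the X chromosome, was at 43.5, 32.2, 28.9 and 36.8 CPM in GF and at 36.1 to 59.2, median 48.3, in GF-SI. Ndufa5 was at 33, 29.9, 36.2 and 40.2 CPM in GF and at 28.5 to 58.4, median 50.7, in GF-SI. Most GF-SI values of both lay above the naïve ones, with overlap at the low end. The log2 fold changes were 0.44 (SE 0.13, adjusted p = 0.044, edgeR) for Ndufa1 and 0.46 (SE 0.14, adjusted p = 0.0496) for Ndufa5. Those of Ndufs6, which binds zinc, and Ndufa8 were 0.45 (SE 0.15, adjusted p = 0.0733) and 0.27 (SE 0.09, adjusted p = 0.0785). The Ndufa8 call was kept in 4 of 6 alternatives and in 9 of 16 fits that each left out 1 library.

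In complex II 1 member rose and 1 fell. Sdha, the flavoprotein that oxidises succinate, was at 202, 182, 131 and 219.6 CPM in GF and at 158 to 292.5, median 245, in GF-SI. Sdhc, one of the membrane anchors, was at 39.9, 40.8, 45.7 and 30.7 CPM in GF and at 21.7 to 35.2, median 30.8, in GF-SI. Sdha rose, with a log2 fold change of 0.38 (SE 0.14, adjusted p = 0.0947, edgeR), and Sdhc fell, at -0.38 (SE 0.11, adjusted p = 0.0416). The Sdha call was lost in 3 of 6 alternatives and on leaving out any of 12 of 16 libraries, with folds of 0.25 to 0.48 in the latter.

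In complex III, Uqcrb, which takes part in binding ubiquinone, was at 46.1, 44.2, 51 and 52.3 CPM in GF and at 42.1 to 73, median 63.8, in GF-SI. Uqcr11, a small subunit whose promoter stretch is shown above, was at 53.4, 54.3, 61.5 and 45.6 CPM in GF and at 53.1 to 80.8, median 68.1, in GF-SI. Their log2 fold changes were 0.32 (SE 0.1, adjusted p = 0.0693, edgeR) and 0.31 (SE 0.11, adjusted p = 0.0963). The Uqcr11 call was kept in 3 of 6 alternatives and in 4 of 16 fits that each left out 1 library. In complex V, Atp5g2 fell from 24.8, 24, 25 and 20.1 CPM in GF to 15.5 to 22.3, median 18.5, in GF-SI, with a log2 fold change of -0.33 (SE 0.09, adjusted p = 0.0282). Its 2 partner genes for the same protein did not pass the test.

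These 13 calls rested on few naïve pools. Leaving out GF-P3 left no member called, with 4.34% of all genes still called, leaving out GF-P2 left 3, and leaving out GF-P4 gave 17. The counts without GF-P2 and without GF-P4 are given without the share of all genes called. Choroid plexus markers were higher in part of the GF-SI libraries, with a median log2 fold change of 1.63 and none of 5 called, and without the libraries over 200 CPM of them 5 members were called against a background of 9.31%. The fold changes of members that lost their call there were close to those with all libraries, such as 0.42 for Ndufa5, 0.41 for Ndufs6, 0.3 for Uqcrb and 0.29 for Uqcr11, with fewer libraries in the fit. The striatal marker Adora2a fell by 1.97 on the log2 scale, and the 5 striatal markers summed to 119.6 CPM in GF-P1. The microglial marker P2ry12 fell and the endothelial marker Flt1 rose, each 1 of 5. Median log2 fold changes of the 5 markers were -0.078 for microglia and -0.076 for endothelium, the latter opposite in sign to Flt1. The part of striatal tissue and of these cells in the calls was not tested.

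In ex-germ-free mice the subunits that changed were all lower after social interaction. Complex I had 3 members that fell, complex III 2, complex IV 3 and complex V 2, while complex II had none, and 2 of the 17 catalytic or core subunits fell. Of the 80 members tested, 61 had a log2 fold change below 0, with 30 of 37 in complex I, 4 of 4 in complex II, 5 of 8 in complex III, 10 of 14 in complex IV and 12 of 17 in complex V. The median was -0.121, beside -0.00064 for all genes. Adjusted for GC content and length, the median was -0.049, with 10 members called lower and 2 called higher. The share of all genes called in that fit is not given, so these counts are not set against it. In 5 members all exGF-SI animals lay below all exGF pools, which is 6.25% of the members tested, against 1.62% of all genes tested.

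Uqcrc1, a core protein of complex III on the matrix side (ENSMUSG00000025651), had the smallest p. It stood at 132, 179, 139 and 155.5 CPM in exGF-P1 to exGF-P4 and at 90.3 to 128 CPM, median 108, in exGF-SI. Every SI animal lay below every naïve pool. The log2 fold change was -0.48 (SE 0.09, adjusted p = 0.0204, edgeR). Uqcr10, a small subunit of the same complex, was at 42.9, 70.7, 60.5 and 54.2 CPM in exGF and at 32.1 to 51.5, median 37.2, in exGF-SI, overlapping only with exGF-P1. Its log2 fold change was -0.52 (SE 0.14, adjusted p = 0.0634). Corrected for GC content and length it was -0.34 and not called, and the call was also lost without the libraries rich in Gm42418 and without any of exGF-P2, exGF-P3, exGF-P4 and exGF-S10.

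Cox6a1, a regulatory subunit of complex IV (ENSMUSG00000041697) with 2 NRF1 cores in the stretch shown above, was at 66.5, 145, 65.7 and 72.6 CPM in exGF and at 40.4 to 55.1, median 48.5, in exGF-SI. The exGF-P2 pool stood apart at the top, and the other 3 pools also lay above every SI animal. The log2 fold change was -0.88 (SE 0.17, adjusted p = 0.0233, edgeR), and without exGF-P2 Cox6a1 was the one member still called. Its muscle isoform Cox6a2, at a far lower level, was at 3.96, 9.14, 8.47 and 7.65 CPM in exGF and at 2.59 to 4.73, median 4.13, in exGF-SI, with a log2 fold change of -0.91 (SE 0.21, adjusted p = 0.0354). The share of Cox6a1 in the pair was 93.08% ± 2.44 (SD, n = 4) in exGF and 93.41% ± 1.79 (SD, n = 8) in exGF-SI, a difference smaller than the spread between libraries.

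Cox7c, at 125, 227, 175 and 175 CPM in exGF, was at 85 to 150.2, median 109.8, in exGF-SI, and overlapped with exGF-P1. It fell with a log2 fold change of -0.63 (SE 0.15, adjusted p = 0.0413, edgeR).

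In complex I, Ndufs3 was at 38.5, 44, 41.7 and 42.8 CPM in exGF and at 27.3 to 36.6, median 32.1, in exGF-SI. Ndufa6, an accessory subunit of the LYR family that binds the mitochondrial acyl carrier protein, was at 64.8, 87.4, 64.1 and 57.3 CPM against 36 to 53.2, median 47. Ndufv3, an accessory subunit of the module that oxidises NADH, was at 42.2, 53.9, 53.7 and 49.4 CPM against 29 to 41.7, median 36.4. None of these ranges overlapped, the nearest being Ndufv3. The log2 fold changes were -0.39 (SE 0.09, adjusted p = 0.0354, edgeR) for Ndufs3, -0.55 (SE 0.11, adjusted p = 0.0243) for Ndufa6 and -0.45 (SE 0.09, adjusted p = 0.0249) for Ndufv3.

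In complex V, Atp5o, the subunit that joins the peripheral stalk to the catalytic head and confers sensitivity to oligomycin, was at 116.5, 138, 123 and 106 CPM in exGF and at 83.6 to 109, median 93.9, in exGF-SI. Atp5j2, the membrane subunit f, was at 101, 142.5, 137 and 116 CPM against 77.6 to 115.5, median 89.9. Both overlapped through a single low pool. Their log2 fold changes were -0.35 (SE 0.09, adjusted p = 0.0446, edgeR) and -0.41 (SE 0.1, adjusted p = 0.046).

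Members with the highest values in exGF-SI did not pass the test: Ndufa5 at 0.24, Uqcrb at 0.26, Cox4i2 at 0.38 and Atp5h at 0.17 on the log2 scale. In complex II the range was narrow, from -0.17 for the iron-sulfur subunit Sdhb to -0.04 for Sdhc. The alpha and beta subunits of the ATP synthase stood at 0.01 and -0.01, and Cox4i1 at -0.05. Uqcrq, with the highest CV of the members at 10 CPM per kb or more, was at -0.71 with an SE of 0.31.

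**Figure D5:**
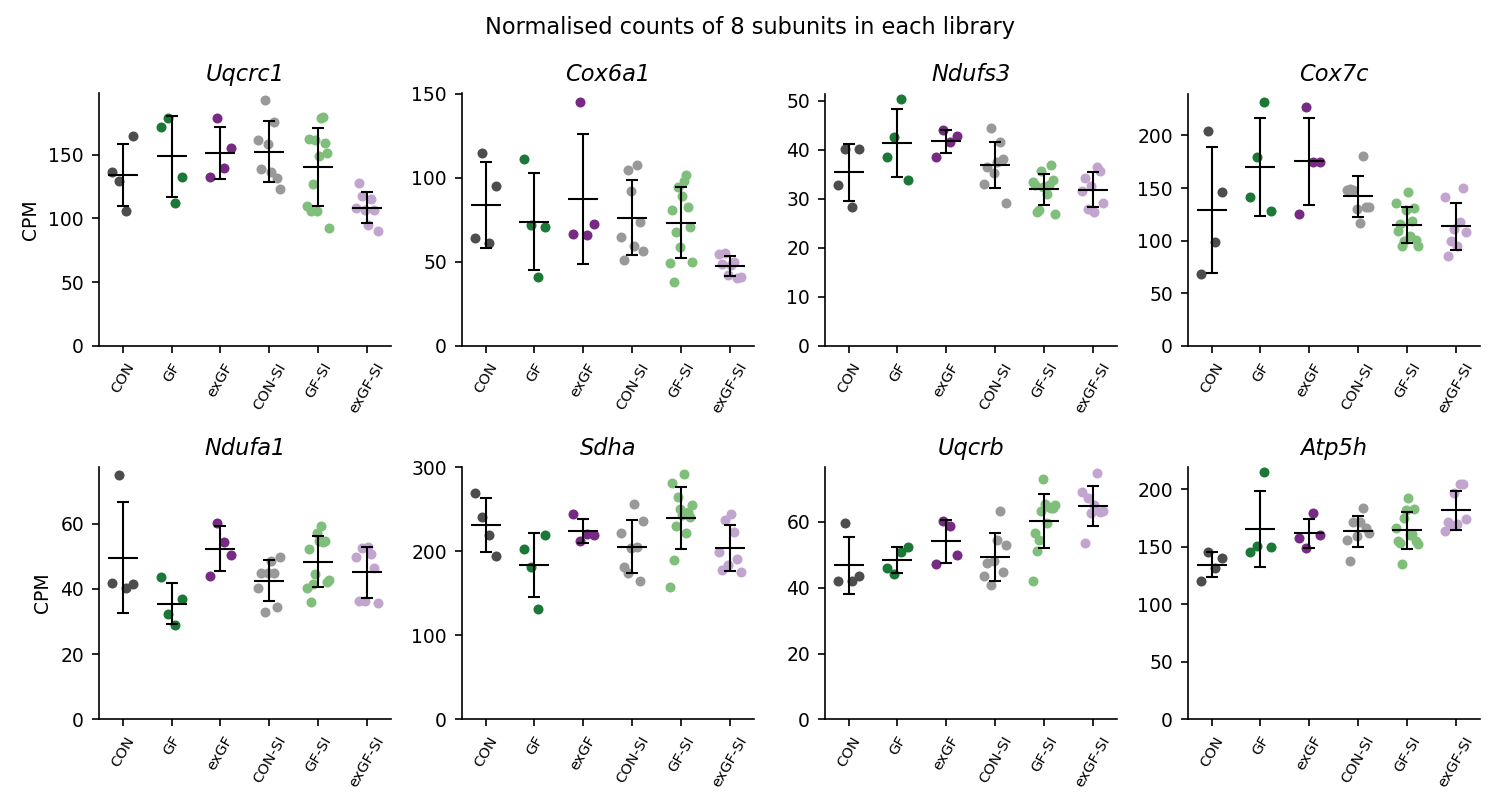
CPM of 8 subunits in each library of the 6 groups (points), with the mean and SD. For Uqcrc1, Cox6a1 and Ndufs3 all exGF-SI points lie below all exGF points, while Uqcrb lies highest in exGF-SI with a median of 64.3 CPM.

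The number of exGF-SI calls depended on 3 of the 4 pools. Without exGF-P2, which had the highest member average of its group (0.252), 1 member was called, with 0.916% of all genes called. Without exGF-P1, exGF-P2 and exGF-S7 together, 2 were called (Cox6a1 and Cox6a2), with 0.978% of all genes called, while the median of the members was -0.107 and the fold changes of Ndufs3, Uqcrc1 and Cox7c were -0.37, -0.41 and -0.59. Without exGF-P4 and without exGF-P3 the counts were 5 and 6. Of the choroid plexus markers 1 of 5 rose (Ttr, log2 fold change 3.93, adjusted p = 0.0937, edgeR), and 14 members were called without the libraries rich in them. The counts of 5, 6 and 14 are given without the share of all genes called. Markers of microglia (2 of 5), endothelium, excitatory neurons, inhibitory neurons and amygdala nuclei (1 of 5 each) fell in the same comparison. Among them were Cx3cr1 at -0.5, Cldn5 at -0.64 and Etv1 at -0.38. Of the other markers of amygdala nuclei, Rorb was at 0.43 and Cyp26b1 and Prkcd at -0.78 and -0.46, none of them called. None of 5 astrocyte and 5 oligodendrocyte markers was called. The part of these cells and nuclei in the lower subunit levels was not tested.

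Of 21 members called in GF-SI or exGF-SI, 2 were called in both, Ndufs3 and Cox7c, both lower. They make up 15.4% of the GF-SI and 20% of the exGF-SI calls. Of all members tested, 12.5% were called in exGF-SI, all of them lower. In GF-SI 16% were called in either direction and 7.41% were called lower. As the overlap rests on 2 members, no conclusion is drawn from these shares. The overlap over all genes was not examined. Cores were also counted in the 250 bases before the start alone, for members with a promoter window. NRF1 cores were in 4 of 6 members that rose in GF-SI, 1 of 5 that fell in GF-SI and 1 of 9 that fell in exGF-SI. Over all 66 members the count in these 250 bases was 13 (19.7%). ETS cores were in 1, 1 and 4 of the same sets, against 20 of 66 (30.3%). These sets are small and their difference was not tested.

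Whether the responses differed between colonisation statuses was tested in a model over all 6 groups. No member passed for GF against CON (0 of 81, background 0.0931%), exGF against CON (0 of 81, background 0%) or exGF against GF (0 of 81, background 0%). Unadjusted p-values under 0.05 were reached by 17, 11 and 10 members (21%, 13.6% and 12.3%), against 15.8%, 5.83% and 11.4% of all genes. DESeq2 called 6, 0 and 0, against 1.63%, 0.00338% and 0.145% of all genes in its fit. All 11 in exGF against CON and all 10 in exGF against GF were lower in exGF. These contrasts share the same SI and naïve libraries. The largest difference in response by p was that of Uqcr11 between GF and CON, 0.74 on the log2 scale (SE 0.21, adjusted p = 0.124, edgeR), and for Uqcrc1 between exGF and CON it was -0.66 (SE 0.22, adjusted p = 0.786). A fall that passed the test in exGF mice was therefore not shown to differ from the response in CON mice.

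After social interaction, 3 of 79 members differed between CON-SI and exGF-SI, against 1.31% of all 14937 genes. Uqcrc1 ranged from 123 to 193 CPM, median 149, in CON-SI and from 90.3 to 128 in exGF-SI, with a log2 fold change of -0.49 (SE 0.09, adjusted p = 0.0248, edgeR). Cox6a1 ranged from 51.3 to 108 CPM, median 69.2, in CON-SI against 40.4 to 55.1, with -0.69 (SE 0.14, adjusted p = 0.0486). Uqcrb was higher in exGF-SI, at 53.8 to 74.9 CPM, median 64.3, against 40.8 to 63.5, median 47.8, with 0.39 (SE 0.08, adjusted p = 0.0497). Uqcrc1 and Cox6a1 were thus lower and Uqcrb higher, with overlap in all 3. Adjusted for GC content and length, 1 member, Uqcrc1, was called. The share of all genes called in that fit is not given, so this count is not set against it. Of the choroid plexus markers 4 were tested here and 2 were higher in exGF-SI, with a median log2 fold change of 2.11, and 1 of 5 microglial markers was lower. Without the libraries rich in choroid plexus markers Cox6a1 was at -0.66 and not called (adjusted p = 0.152, edgeR), while Uqcrc1 and Uqcrb were at -0.51 and 0.44 and called. The part of microglia was not tested.

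No member differed between CON-SI and GF-SI (0 of 79, background 1.1%) or between GF-SI and exGF-SI (0 of 79, background 0.0995%). Unadjusted p-values under 0.05 were reached by 16 and 6 members (20.3% and 7.59%), against 16.5% and 12.9% of all genes, and DESeq2 called 3 and 2, against 1.86% and 1.08%. Uqcrb, with 42.1 to 73 CPM in GF-SI, was at 0.28 (SE 0.09, adjusted p = 0.154, edgeR) over CON-SI. Cox6a1, with 38 to 101.5 CPM, median 75.6, in GF-SI, was at -0.63 (SE 0.15, adjusted p = 0.126) in exGF-SI relative to GF-SI.

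In naïve mice no member passed the test between CON and GF (0 of 79, background 0.142%), CON and exGF (0 of 79, background 0.104%) or GF and exGF (0 of 79, background 0%). Unadjusted p-values under 0.05 were reached by 10, 3 and 12 members (12.7%, 3.8% and 15.2%), against 11%, 5.43% and 9.42% of all genes, and DESeq2 called 0, 1 and 2, against 0.601%, 0.235% and 0.278%. All 12 between GF and exGF were higher in exGF, among them Ndufa1 at 0.55 (SE 0.13, adjusted p = 0.369, edgeR) and Uqcr11 at 0.51 (SE 0.12, adjusted p = 0.369). Uqcr11 was at 53.4, 54.3, 61.5 and 45.6 CPM in GF and at 83, 91.3, 67.1 and 65.3 in exGF, so the pools did not overlap. Such separation was found in 6 of 79 members between GF and exGF, all higher in exGF (background 2.59%), in 4 between CON and exGF, all higher in exGF (background 1.89%), and in 1 between CON and GF (background 5.93% in either direction). The last was Atp5h, which at 120.2 to 145 CPM in CON lay below GF and exGF. Ndufa12, an accessory subunit of complex I, was at 72.5, 98.1, 70.4 and 65.1 CPM in CON and at 105, 112, 124 and 104 in exGF, with a log2 fold change of 0.54 (SE 0.12, adjusted p = 0.268), and 11% of the joint counts of Ndufa12 and its pseudogene copy lay on the copy.

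Other genes of mitochondrial function were tallied for comparison. Of all genes tested in CON-SI over CON, 2.35% were called higher and 1.37% lower. In CON-SI, 2 of 49 assembly factors rose (Coa4 at 0.78 and Ndufaf1 at 0.29) and none fell. None of 17 tricarboxylic acid (TCA) cycle genes, 15 biogenesis regulators and 18 import genes was called. Nor was any of 9 further genes of electron transfer and ATP synthesis (Cyc1, Cycs, Etfa, Etfb, Etfdh, Nnt, Atpif1, Usmg5 and Atp5mpl, the last being itself a member). Of the 8 mitochondrially encoded subunits tested, mt-Cytb, the mitochondrial subunit of complex III, fell by 0.59 on the log2 scale. Cytosolic ribosomal proteins had 2 of 76 higher, and mitochondrial ribosomal proteins 1 higher and 1 lower of 76.

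In GF-SI, 3 of 49 assembly factors rose and 3 fell, among them Tmem126b at 0.31 and Ndufaf3 at -0.38, both needed to build complex I, and Sdhaf1 at -0.54, which helps mature the iron-sulfur subunit of complex II. Regulators of biogenesis had 3 of 15 higher: Pprc1, a relative of the coactivator PGC-1, at 0.66, Gabpa, the DNA-binding subunit of GABP, at 0.42, and Twnk, the mitochondrial DNA helicase, at 0.46. Of 17 TCA cycle genes Suclg1 and Dld rose, at 0.27 and 0.48, and of 18 import genes Tomm40 fell by 0.27. Cytosolic ribosomal proteins had 6 higher and 8 lower of 76 and mitochondrial ribosomal proteins 4 and 2 of 76. Of all genes tested in GF-SI over GF, 7.87% were called higher and 5.86% lower. None of the 9 further genes of electron transfer and ATP synthesis and no mitochondrially encoded subunit of 8 was called.

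In exGF-SI, 4 of 49 assembly factors fell and none rose: Ndufaf8 (complex I) at -0.43, Cox14 at -0.44 and Coa6 at -0.58 (complex IV) and Uqcc2 (complex III) at -0.53. Mitochondrial ribosomal proteins, which translate the mitochondrially encoded subunits, had 8 of 76 lower and none higher, with a median of -0.136 and Mrpl12 at -0.66. The small import chaperones Timm13 and Timm8b fell by 0.43 and 0.42 on the log2 scale, the only calls of 18 import genes. Of 17 TCA cycle genes Mdh2, malate dehydrogenase, fell by 0.28. The biogenesis regulators Gabpb1 and Nrf1, which encode a GABP subunit and NRF1, rose by 0.36 and 0.27. Cytosolic ribosomal proteins had 5 higher and 8 lower of 76, and none of 8 mitochondrially encoded subunits and of the 9 further genes of electron transfer and ATP synthesis was called. Of all genes tested in exGF-SI over exGF, 4.6% were called higher and 3.01% lower. No test across lists was made.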

How the data were processed

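Per the labels and the study's methods, the authors trimmed reads with Trimmomatic 0.32, aligned them with STAR 2.4.0f1 to GRCm38.p3 and counted them per Ensembl gene with HTSeq 0.6.0, without using strand, from ribosome-depleted libraries. The deposited table holds raw counts for 43629 genes in 40 libraries. Column names give groups and tube or animal numbers, so columns were mapped to groups. Members and lists were chosen with earlier results of these data known, and the named genes follow a rule: members at an adjusted p of 0.1 or less, the highest and lowest of each complex, the highest and lowest levels, isoform sets and core subunits, and up to 4 of each list.

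Counts were scaled by TMM, filtered by filterByExpr and tested pairwise in edgeR 4.0.16 (R 4.3.3) by the quasi-likelihood test with Benjamini-Hochberg adjustment, and response differences in a fit over 6 groups (16111 genes). CPM are TMM-scaled. CPM per kb use the median length of transcripts with a consensus coding sequence (GENCODE), or else the main transcript. Library totals of 7291810 to 19961958 counts limit precision for the lowest isoforms. Of 140 within-group pairs of libraries none was identical, and chi-square divided by its degrees of freedom was at least 7.8. Nothing says whether pools shared cages or litters, so p-values measure the spread between these libraries. Alternatives were DESeq2 1.42.0, RLE scaling, no filter, a correction by natural splines for GC content and length, leaving out libraries with over 5% of counts in Gm42418, a fit over 6 groups, leave-one-out and, chosen after seeing the data, leaving out libraries with over 200 CPM of choroid plexus markers. The scripts were tested on simulated data. Pseudogene copies were found with blastn 2.17.0+.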

Additional observations from a re-analysis of the deposited data

Results flagged for a closer look

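Each of 24 measures, which were the CPM of the members called after social interaction, their mean deviation and their share of counts, was examined for a library standing apart within a group of 4 to 8 libraries, as a gap to the nearest value above the critical share of the group's range (Dixon). Of 120 groups examined 7 were flagged, and chance flags about 1 in 20. The 12 GF-SI libraries were not examined.

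In naïve CON, CON-P2 stood high for Ndufa1 at 75.03 CPM (the next library was at 41.76) and for Uqcrb at 59.57 CPM (next 43.48), and CON-P3 stood low for Ndufs6 at 37.96 CPM (next 51.84). CON-P2 had the highest average of the members of all libraries, 0.287 on the log2 scale. In naïve GF, GF-P3 stood high for Atp5h at 214.5 CPM (next 150.6). In naïve exGF, exGF-P2 stood high for Cox6a1 at 144.9 CPM (next 72.58), and without it the log2 fold change of Cox6a1 in exGF-SI was -0.52 and still passed the test.

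Among SI libraries, CON-S7 stood high for Ndufa5 at 57.18 CPM (next 42.45) and exGF-S8 for Atp5g2 at 23.15 CPM (next 20.21). The causes were not tested.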

How the results depend on the processing

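No paired analysis was possible because the columns carry tube and animal numbers and were mapped to groups, not to the labels' replicate numbers. No member's call reversed. The median log2 fold change of the members kept its sign under every alternative run in 6 of 12 comparisons, among them exGF-SI over exGF (-0.154 to -0.0489). In the other 6 it changed sign in at least 1: without libraries rich in Gm42418 it was -0.0957 for CON-GF, -0.0121 for CON-exGF and 0.106 for the response GF minus CON, and over all alternatives CON-SI over CON ranged from -0.095 to 0.112, GF-SI over GF from -0.0547 to 0.000717 and CON-SI to GF-SI from -0.0369 to 0.00933. Counts of members called moved as follows, and the cause was not tested. Without the share of all genes beside it, a count alone does not show whether members moved more than other genes. With DESeq2, CON-exGF gave 1, GF-exGF 2, CON-SI over CON 4, CON-SI to GF-SI 3, CON-SI to exGF-SI 6, GF-SI to exGF-SI 2 and the response difference GF minus CON 6. Without the filter on low counts, CON-GF gave 1, CON-exGF 1, GF-exGF 2, CON-SI over CON 0 and GF-SI over GF 8. Corrected for GC content and length, CON-SI over CON gave 3 and CON-SI to exGF-SI 1. In the fit over 6 groups, CON-SI over CON gave 3 and CON-SI to GF-SI 1. Without libraries rich in Gm42418, CON-SI over CON gave 0 and exGF-SI over exGF 2. Without libraries rich in choroid plexus markers, chosen after seeing the data, CON-exGF gave 1 and GF-SI over GF 5. Leaving out 1 library at a time, the counts ranged from 0 to 1 for CON-exGF (1 without CON-P2), CON-SI over CON and GF-SI to exGF-SI, from 0 (without GF-P3) to 17 (without GF-P4) for GF-SI over GF, from 1 (without exGF-P2) to 14 (without exGF-S9) for exGF-SI over exGF, from 0 to 5 (without CON-S7) for CON-SI to GF-SI, from 2 (without exGF-S10) to 6 (without CON-S7) for CON-SI to exGF-SI, from 0 to 7 (without CON-P4 or CON-S7) for the response GF minus CON, and 0 for CON-GF, GF-exGF and both other response differences. Depth limits statements on Cox8b, Cox8c, Cox7b2, Cox6b2 and Cox4i2, which failed the filter in most comparisons.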
